A study of Mus musculus with 8 samples.

Results

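The cytokine genes followed here were *Il6*, *Il12a*, *Il12b*, *Il23a*, *Il27*, *Il10*, *Il15*, *Tnf* and *Osm*, together with *Il10ra*, which encodes the ligand-binding chain of the IL-10 receptor. The 10 genes were picked by symbol, with earlier results of these data known, and 8 of them had values among the 18635 genes listed. *Il12a* and *Il23a* were not analysed here. All 8 genes with values had at least 10 normalized counts on average, the filter used, and *Il6* had the fewest reads, between 13 and 44 per sample.

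Macrophages release these cytokines when they sense microbial or tissue damage signals. IL-6 and oncostatin M, the product of *Osm*, signal through receptors that share the chain encoded by *Il6st* and act largely through STAT3. IL-12 and IL-23 share the subunit encoded by *Il12b* and steer T cells and NK cells, with *Il12a* and *Il23a* encoding their partner subunits, whereas *Il27* pairs with *Ebi3* to form IL-27. TNF and IL-15 act on inflammation and on NK and memory T cells, and IL-10 restrains macrophage cytokine production through *Il10ra*, *Il10rb* and STAT3.

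Bone marrow-derived macrophages (BMDMs) were compared between 2 genotypes after 24 h in medium conditioned by AE17, a murine mesothelioma cell line, and are called TEMs, for tumor-educated macrophages. The control group held 4 samples of *Phgdh*fl/fl TEMs, from littermates that carry the floxed *Phgdh* alleles and no Cre (*Cx3cr1*+/+). The 4 other samples, called Cre samples below, were *Phgdh*fl/fl *Cx3cr1*-Cre TEMs and express Cre from 1 *Cx3cr1* allele (*Cx3cr1*cre/+). In them, *Phgdh* deletion, Cre expression and loss of 1 *Cx3cr1* copy cannot be told apart. Donor mice were 6 to 8 weeks old on a C57BL/6 background, and their marrow was cultured for 7 days in L929-conditioned medium. All samples saw the tumor-conditioned medium, so no sample gives the level of these cytokines without it. The samples are called biological replicates by the submitters, but which cultures or mice they came from is not given in the sources used here, so the p-values measure the spread between these samples.

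Between 38219563 and 47027420 reads fell on the listed genes in each sample. *Phgdh*, which encodes the first enzyme of serine synthesis, had normalized counts of 119.0, 128.9, 116.8 and 104.9 in the control samples and 32.63, 35.33, 14.23 and 26.26 in the Cre samples, with a log2 fold change of -2.15 (SE 0.21, adjusted p = 5.1e-08, limma). *Cx3cr1* had a log2 fold change of -0.70 (SE 0.05, adjusted p = 1.9e-09, limma). Across all 13629 genes tested, 41.0% had an adjusted p under 0.05, with 20.8% higher and 20.3% lower in the Cre samples, and for 36.7% the control and Cre samples did not overlap. The 7 macrophage markers all had values, and their summed normalized counts ran from 986516 to 1075524 in the control samples and from 973612 to 1048997 in the Cre samples, most of it *Lyz2*. Of these markers, *Fcgr1* (log2 fold change -0.40, adjusted p = 7.4e-12), *Itgam* (-0.19, adjusted p = 7e-06) and *Adgre1* (-0.08, adjusted p = 0.0056) fell by limma's test, without overlap between the genotypes, and the other 4 were not called. Their part in the cytokine values was not tested. The T and NK cell list had values for 2 of 7 genes, summing to at most 47.65, and the fibroblast and mesothelial list for 2 of 5, summing to at most 38.9. B cell markers (1 of 3) summed to at most 4.135. Dendritic cell markers (2 of 4) summed to 7.236 to 26.71 in the control samples and 22.86 to 38.63 in the Cre samples. These sums overlapped, the 1 dendritic cell marker past the filter was not called, and their part in the cytokine values was not tested. Of the 5 neutrophil markers only *S100a8* had values, and it was higher in the Cre samples (575.7 to 631.3) than in the control samples (466.7 to 574.7), with a log2 fold change of 0.23 (SE 0.06, adjusted p = 0.0044, limma). The part of *S100a8*-expressing cells in the cytokine values was not tested.

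The stretch before the start of transcription is where NF-κB, AP-1 and C/EBP factors are known to act on inflammatory cytokine genes. The 250 bases upstream of the RefSeq start of *Il6*, *Il12b* and *Tnf* (GRCm38.p6) are shown because only these 3 genes had a matching promoter window. Capitals mark the κB letters GGGNNNNNCC on either strand, where matches can overlap. The windows lie at chr5:30012864-30013113 on the plus strand, chr11:44399813-44400062 on the plus strand and chr17:35202008-35202257 on the minus strand, respectively.
Il6: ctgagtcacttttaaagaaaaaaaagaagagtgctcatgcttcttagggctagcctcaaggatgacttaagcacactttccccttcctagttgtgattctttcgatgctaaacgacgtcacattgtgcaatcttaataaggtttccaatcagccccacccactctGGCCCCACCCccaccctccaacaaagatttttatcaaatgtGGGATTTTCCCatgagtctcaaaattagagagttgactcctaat
Il12b: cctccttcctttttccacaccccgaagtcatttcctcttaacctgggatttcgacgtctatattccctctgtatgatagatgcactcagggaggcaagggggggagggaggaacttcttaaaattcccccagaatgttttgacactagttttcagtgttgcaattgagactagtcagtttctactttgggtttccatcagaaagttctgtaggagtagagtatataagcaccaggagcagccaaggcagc
Tnf: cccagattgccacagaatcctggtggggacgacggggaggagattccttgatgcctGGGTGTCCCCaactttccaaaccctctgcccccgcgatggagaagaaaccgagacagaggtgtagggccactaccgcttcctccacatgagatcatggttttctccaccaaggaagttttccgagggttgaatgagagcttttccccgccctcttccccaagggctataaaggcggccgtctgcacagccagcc

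Of 5 motifs searched on both strands, κB (GGGNNNNNCC), AP-1 (TGANTCA), C/EBP (TTGCNNAA), the STAT motif GAS (TTCNNNGAA) and the TATA box (TATAAA), the *Il6* window held 3. Its κB letters stood at 85 to 76 bases before the start and in overlapping matches on opposite strands at 44 to 35 and 43 to 34 bases, its AP-1 letters at 249 to 243 bases and its C/EBP letters at 128 to 121 bases. The *Tnf* window held κB letters on both strands at 194 to 185 bases and TATAAA at 29 to 24 bases. The *Il12b* window held none of the 5, which says only that these exact letters are not in these 250 bases. Among 32851 windows of the same length before annotated mouse genes, κB letters were found in 45.8%, AP-1 in 6.75%, C/EBP in 9.56%, GAS in 7.02% and TATAAA in 12.4%. The matches describe sequence and were not tested as binding sites. Of the 8 genes with values, 3 were matched in the promoter table.

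Of the 8 genes with values, 5 were called higher in the Cre samples (*Il6*, *Il12b*, *Osm*, *Il15* and *Il10ra*), and *Tnf*, *Il10* and *Il27* were not called. The corresponding background is the 20.8% of all tested genes that were called higher. Control and Cre samples did not overlap for 4 of the 8, against 36.7% of all genes tested. The median log2 fold change of the 8 genes was 0.27, whereas that of all tested genes was -0.0018. None of the 8 passed the cutoff of an absolute log2 fold change over 1.5 that the study set. At least 98.4% of all tested genes lay below it too, the share with an absolute value no larger than that of *Il6* (0.92). With RNA from whole cultures, a change in the number of producing cells and a change in RNA per cell cannot be told apart.

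**Figure D1:**
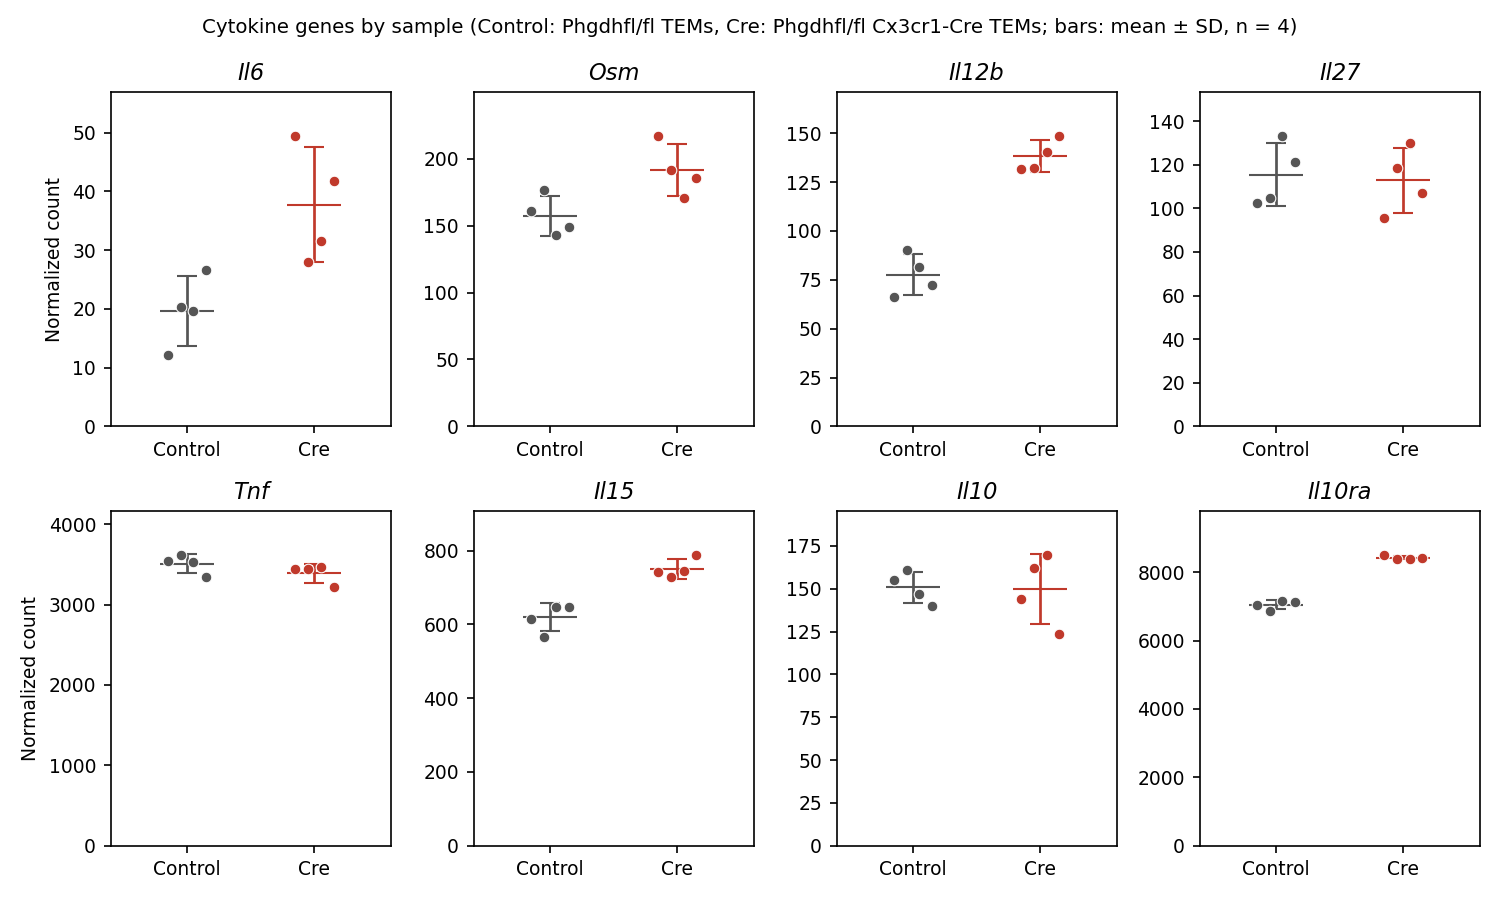
Normalized counts (vertical axes, starting at 0) of the 8 cytokine and receptor genes in each of the 4 control and 4 Cre samples, with bars for the mean ± SD. The samples of the genotypes separate for *Il6*, *Il12b*, *Il15* and *Il10ra* and overlap for *Osm*, *Il27*, *Tnf* and *Il10*.

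*Il6* (chr5:30013114-30019981, plus strand, mm10) is expressed at a low level by these macrophages. Its normalized counts were 12.09, 20.25, 19.64 and 26.71 in the control samples and 49.51, 28.06, 31.51 and 41.82 in the Cre samples. The highest control sample lay just below the lowest Cre sample. Samples varied widely within both genotypes. The mean was 19.7 ± 5.99 in the control samples against 37.7 ± 9.79 in the Cre samples (SD, n = 4 each), and *Il6* rose by a log2 fold change of 0.92 (SE 0.25, 95% interval 0.39 to 1.45, adjusted p = 0.00568, limma). This corresponds to 1.89-fold, and 0.895% of all tested genes had a log2 fold change at least as high. These values rest on 13, 22, 19 and 28 reads in the control samples and 44, 27, 31 and 43 in the Cre samples, before division by depth, so the fold is loosely fixed and moved between 0.72 and 1.08 on the log2 scale when each sample was left out.

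*Osm* (chr11:4236420-4241026, plus strand, mm10), the other IL-6 family cytokine, had normalized counts of 160.8, 176.7, 142.7 and 148.8 in the control samples. In the Cre samples its normalized counts were 217.2, 191.2, 170.8 and 185.8. Of the Cre samples, 3 of 4 lay above all control samples, and the groups overlapped. The log2 fold change was 0.28 (SE 0.10, 95% interval 0.08 to 0.48, adjusted p = 0.0246, limma), from a mean of 157 ± 15 to 191 ± 19.3 (SD, n = 4 each). The exact two-sided permutation test over the 70 labelings of 4 against 4 gave p = 0.057 for *Osm*. The call was lost with quantile normalization (adjusted p = 0.064, limma), and without control replicate 3 (0.0766), control replicate 4 (0.0648) or Cre replicate 1 (0.101).

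*Il12b* (chr11:44400063-44414033, plus strand, mm10), which encodes the subunit shared by IL-12 and IL-23, showed the clearest separation among the cytokines with a large fold change. Its normalized counts were 66.01, 90.2, 81.66 and 72.51 in the control samples and 131.6, 132.0, 140.3 and 148.8 in the Cre samples. All Cre samples lay well above all control samples, and the range within each genotype was smaller than the gap between them. *Il12b* rose from 77.6 ± 10.6 to 138 ± 8.13 (SD, n = 4 each), by a log2 fold change of 0.83 (SE 0.12, 95% interval 0.59 to 1.08, adjusted p = 7.84e-06, limma) or 1.78-fold. Leaving out single samples kept the log2 fold change between 0.76 and 0.91, and 1.24% of all tested genes had one at least as high. Since *Il12a* and *Il23a* were not analysed here, the transcript of the shared subunit cannot be set beside those of its partners.

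*Il27* (chr7:126589010-126594941, minus strand, mm10), which encodes the cytokine-like subunit of IL-27, had normalized counts of 102.3, 104.9, 133.3 and 121.2 in the control samples and 95.64, 118.5, 130.1 and 107.0 in the Cre samples. The groups lay over each other. The log2 fold change was -0.03 (SE 0.12, 95% interval -0.29 to 0.22, adjusted p = 0.854, limma), so differences inside this interval were not resolved. The last 103 bases of the gene overlap *Apobr* on the opposite strand, a gene of far higher counts (14931 ± 289.9 and 13333 ± 308, SD, n = 4 each) whose log2 fold change was -0.16 (SE 0.02, adjusted p = 7.3e-06, limma). The libraries were made with a directional kit, per the methods of the paper. The strand setting of the counting is not given in the sources used here, and the share of *Apobr* reads in the *Il27* count was not tested. *Ebi3*, the partner of *Il27*, had normalized counts of 4345, 4401, 4584 and 4395 in the control samples and 4059.5, 4128, 4164 and 4071 in the Cre samples, and fell by 0.11 on the log2 scale (SE 0.03, adjusted p = 0.00147, limma). Per length, *Ebi3* stood at 34.3 ± 3.59 times the level of *Il27* in control TEMs and 32.6 ± 3.97 times in Cre TEMs (SD, n = 4 each). The log2 difference of -0.08, taken on normalized counts + 1 as for the other ratios tested, did not pass the exact permutation test (two-sided p = 0.54, adjusted p = 0.54 over 3 ratios).

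*Tnf* (chr17:35199381-35202007, minus strand, mm10) was abundant in both genotypes. Its normalized counts were 3543, 3618, 3534 and 3346 in the control samples and 3438, 3443, 3464 and 3215 in the Cre samples. The groups overlapped, and replicate 4 was the lowest sample of each genotype. The means were 3510.3 ± 116 and 3390.1 ± 117 (SD, n = 4 each), and the log2 fold change of -0.05 (SE 0.03, 95% interval -0.11 to 0.01) did not pass the test (adjusted p = 0.206, limma). With 3056 to 3931 reads for *Tnf* per sample, the interval was narrow, and its upper end lay at 1.01-fold.

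*Il15* (chr8:82331632-82403222, minus strand, mm10), which supports NK cells and memory T cells, had normalized counts of 614.5, 567.0, 648.1 and 647.8 in the control samples. In the Cre samples its normalized counts were 741.5, 727.5, 745.2 and 788.7, so that all Cre samples lay above all control samples. *Il15* rose from 619 ± 38.3 to 751 ± 26.5 (SD, n = 4 each), by a log2 fold change of 0.28 (SE 0.05, 95% interval 0.17 to 0.38, adjusted p = 0.00015, limma) or 1.21-fold. *Il15ra*, whose product presents IL-15 to neighbouring cells, had a log2 fold change of 0.18 that did not pass the test (SE 0.09, adjusted p = 0.118, limma). Without Cre replicate 3, the log2 fold change of *Il15ra* was 0.259 and was called (adjusted p = 0.0265, limma). The ratio of *Il15ra* to *Il15* per length was 0.174 ± 0.0128 in control and 0.163 ± 0.0185 in Cre TEMs (SD, n = 4 each), with a log2 difference of -0.10 (exact permutation test, two-sided p = 0.40, adjusted p = 0.54 over 3 ratios).

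*Il10* (chr1:131019845-131024974, plus strand, mm10) had normalized counts of 155.3, 161.1, 146.8 and 140.2 in the control samples and 144.0, 162.1, 169.8 and 123.5 in the Cre samples. The Cre samples spread to both sides of the control samples, with 2 above and 1 below all of them. The means were 151 ± 9.18 and 149.9 ± 20.6 (SD, n = 4 each), and the log2 fold change of -0.02 (SE 0.11, 95% interval -0.24 to 0.20) did not pass the test (adjusted p = 0.912, limma). Differences inside this interval were not resolved with these samples, which had 127 to 175 reads each.

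*Il10ra* (chr9:45253837-45269149, minus strand, mm10) had the smallest error of the 8 genes. Its normalized counts were 7038, 6874, 7169.7 and 7122 in the control samples and 8506, 8398, 8389 and 8414 in the Cre samples. The genotypes were separated by a gap wider than the whole range of either group. *Il10ra* rose from 7051 ± 130.1 to 8427 ± 53.8 (SD, n = 4 each), by a log2 fold change of 0.26 (SE 0.02, 95% interval 0.21 to 0.30, adjusted p = 9.68e-09, limma) or 1.20-fold. It lies 74.6 Mb from the engineered *Cx3cr1* locus on the same chromosome, and 65 bases of it are also annotated as the microRNA gene *Mir7086* on the same strand. The second chain of the receptor, *Il10rb*, had normalized counts of 6793, 7082, 7548 and 7427 in the control samples and 6533, 6508, 6886 and 6557 in the Cre samples. *Il10rb* fell by 0.12 on the log2 scale (SE 0.03, adjusted p = 0.00243, limma), although Cre replicate 3 lay within the range of the control samples. Per length, the ratio of *Il10ra* to *Il10rb* was 1.13, 1.06, 1.03 and 1.04 in the control samples and 1.42, 1.4, 1.33 and 1.4 in the Cre samples, which did not overlap. The exact permutation test of this ratio gave a two-sided p = 0.029, the smallest that 4 against 4 allows, and an adjusted p = 0.086 over 3 ratios, with a log2 difference of 0.38. Given the p-values of the other ratios, no separation of the samples could have brought this adjusted p under 0.05.

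**Figure D2:**
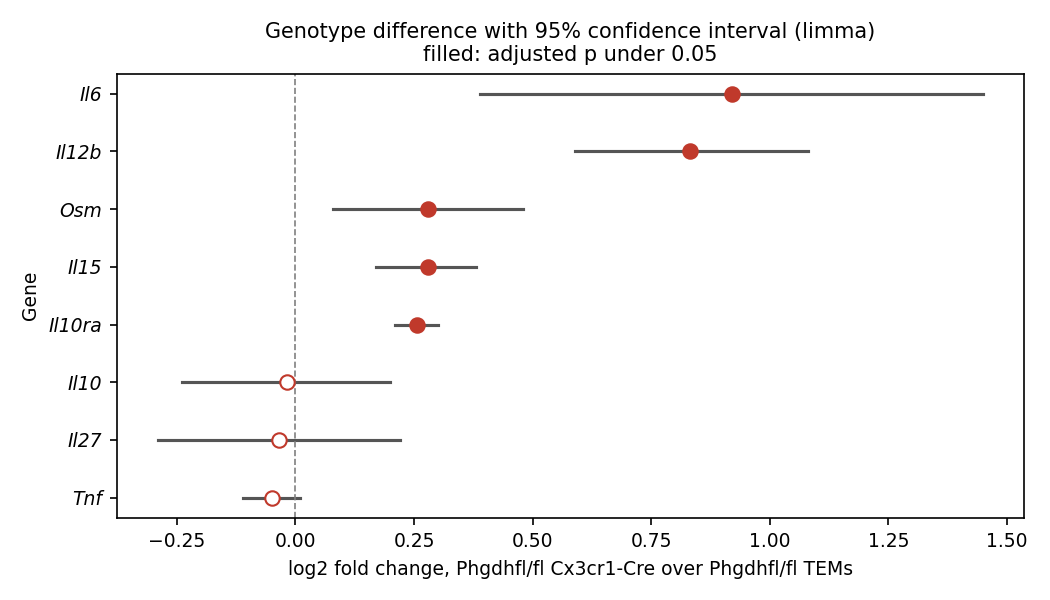
Log2 fold change of each gene in *Phgdh*fl/fl *Cx3cr1*-Cre over *Phgdh*fl/fl TEMs (horizontal axis) with its 95% confidence interval from limma, n = 4 samples per genotype, filled where the adjusted p was under 0.05. *Il6* (0.92) and *Il12b* (0.83) have the largest differences and *Il6* the widest interval, while the interval of *Il10ra* (0.21 to 0.30) is narrow.

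Levels were compared between genes as FPKM, which divides reads by exon length and library depth and was computed from the recovered reads. In control TEMs the highest levels were those of *Tnf* at 49.4 ± 1.68 FPKM and *Il10ra* at 46.5 ± 0.798 FPKM (SD, n = 4 each), whose samples overlapped. *Il15* followed at 6.32 ± 0.383 FPKM, then *Il10* at 2.66 ± 0.165 FPKM and *Il27* at 2.61 ± 0.325 FPKM, which overlapped each other. *Osm* stood at 1.6 ± 0.155 FPKM, *Il12b* at 0.910 ± 0.124 FPKM and *Il6* at 0.187 ± 0.0567 FPKM, each apart from its neighbours in the order. In Cre TEMs *Il10ra* at 56.2 ± 0.253 FPKM stood above *Tnf* at 48.2 ± 1.71 FPKM without overlap. *Il12b* at 1.64 ± 0.0959 FPKM overlapped *Osm* at 1.96 ± 0.195 FPKM, and *Osm* in turn overlapped *Il27*. *Il6* remained the lowest of the 8 at 0.362 ± 0.0931 FPKM.

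**Figure D3:**
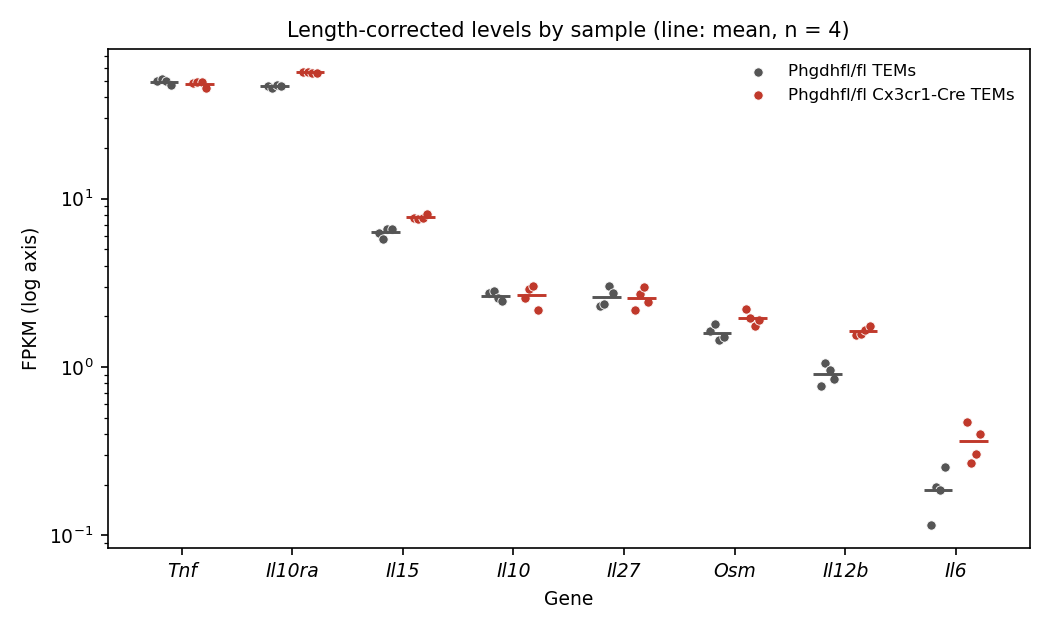
FPKM of the 8 genes in each sample (vertical log axis), with a line at the mean of 4 samples per genotype, ordered by the control mean. *Tnf* and *Il10ra* lie at 45.4 FPKM or above and *Il6* at or below 0.474 FPKM in every sample, and *Il12b* of the Cre samples reaches the range of *Osm*.

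The balance of inflammatory cytokines to *Il10* was described per length, without a test, since its parts are the values above. The ratio of *Il12b* to *Il10* was 0.283, 0.373, 0.371 and 0.344 in the control samples and 0.609, 0.542, 0.550 and 0.802 in the Cre samples, and the groups did not overlap. The ratio of *Il6* to *Il10* was 0.0712 ± 0.0249 in control and 0.140 ± 0.0505 in Cre TEMs, and that of *Tnf* to *Il10* was 18.6 ± 0.627 and 18.3 ± 2.05 (SD, n = 4 each). Both of these overlapped between the genotypes.

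The genes whose pattern over the 8 samples was nearest were sought for the 3 called genes with the highest counts, and were taken from 10515 genes averaging at least 100 normalized counts, by the root-mean-square distance of the log2 values. For *Il10ra* these were *Zfp655* (distance 0.0177), *Pnpla7* (0.019) and *Srxn1* (0.0196). For *Il15* they were *Cip2a* (0.0403), *Clec5a* (0.0412) and *Pbx3* (0.0412), and for *Osm* they were *Rhod* (0.0601), *Sirt3* (0.0721) and *Tbc1d4* (0.0732).

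A wider list of 69 genes of these pathways, covering cytokines, receptors, kinases and transcription factors, targets, mRNA decay and TNF receptor adaptors, gave values past the filter for 56. Of these, 19 were called higher and 12 lower, beside 20.8% and 20.3% of all tested genes, and 25 were not called. Their median log2 fold change was 0.05. Control and Cre samples did not overlap for 26 of the 56, beside 36.7% of all tested genes. *Lif*, *Ctf1*, *Csf3*, *Il2*, *Il19*, *Il23r* and *Timp3* were below the filter, and *Osmr*, *Il2rb*, *Il11*, *Il20*, *Il21* and *Il24* were not analysed here.

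Among the related cytokines, 1 of 9 tested was called higher and 2 lower, beside 20.8% and 20.3% of all tested genes. *Tnfsf12*, which encodes the TNF family ligand TWEAK, rose by a log2 fold change of 0.25 (adjusted p = 0.000138, limma). *Tnfsf9*, the ligand of the T cell costimulator 4-1BB, had a log2 fold change of -0.15 (adjusted p = 0.0363, limma). The call of *Tnfsf9* was lost in 7 of 17 alternatives. Among them were scaling to total reads (adjusted p = 0.0583), eBayes without trend (0.0775) and DESeq2 (0.061). The others were the fits without control replicate 3 (adjusted p = 0.16), Cre replicate 1 (0.101), Cre replicate 2 (0.0544) and Cre replicate 3 (0.0674). The third called cytokine gene was *Ebi3*, given above.

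Of the 11 receptor genes tested, 3 were called higher and 2 lower, beside 20.8% and 20.3% of all tested genes. *Il6st*, the chain through which IL-6 and oncostatin M signal, had normalized counts of 4128, 4009, 3876 and 3833 in the control samples and 4423, 4465, 4397 and 4374 in the Cre samples. The genotypes did not overlap, and *Il6st* rose by 0.16 on the log2 scale (SE 0.03, adjusted p = 7.68e-05, limma), whereas *Il6ra*, the chain that binds IL-6, had a log2 fold change of -0.01 (adjusted p = 0.92, limma). The TNF receptors moved in opposite directions. *Tnfrsf1b*, the receptor prominent on leukocytes, had normalized counts of 38246, 38753, 36462 and 37159 in the control samples and 42155, 42373, 42724 and 42319 in the Cre samples and rose by 0.17 (SE 0.02, adjusted p = 2.64e-06, limma). *Tnfrsf1a*, the death domain receptor found on most cells, had normalized counts of 7685, 7500.3, 7579 and 7704 in the control samples and 7229, 7210.4, 7277 and 7182 in the Cre samples and fell by 0.08 on the log2 scale (SE 0.02, adjusted p = 0.00786, limma). Neither TNF receptor overlapped between the genotypes. The common gamma chain *Il2rg*, part of the IL-15 receptor, rose by 0.12 (adjusted p = 0.000836, limma). *Il27ra* (0.16, adjusted p = 0.637) and *Il12rb1* (0.26, adjusted p = 0.0835) did not pass limma's test, and *Il12rb1* passed it without Cre replicate 2 (0.319, adjusted p = 0.0495).

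Of the 8 kinases and transcription factors reported, 5 were called higher, beside 20.8% of all tested genes, and 3 were not called. *Jak1*, a kinase of the IL-6 and IL-10 receptors, had normalized counts of 12883, 12288, 12547 and 12328 in the control samples and 13425, 13711, 13530 and 13787 in the Cre samples. The genotypes did not overlap, and *Jak1* rose by 0.12 on the log2 scale (SE 0.02, adjusted p = 0.000138, limma). *Jak2* rose by a log2 fold change of 0.20 (adjusted p = 1.93e-05, limma) and *Tyk2*, a kinase of the IL-12 and IL-10 receptors, by 0.14 (adjusted p = 0.000355, limma). *Jak3*, the kinase of the common gamma chain, had a log2 fold change of 0.13 (adjusted p = 0.0172, limma), a call lost with eBayes without trend (0.054), without control replicate 2 (0.0669) and without Cre replicate 1 (0.066). *Stat3* had a log2 fold change of -0.01 (SE 0.03, adjusted p = 0.75, limma).

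Of the 12 targets and feedback inhibitors, 4 were called higher and 2 lower, beside 20.8% and 20.3% of all tested genes, and 6 were not called. The median log2 fold change of the 12 was 0.01, and the genes named next are those called higher. *Il1rn*, the IL-1 receptor antagonist and a known target of IL-10 and STAT3, had normalized counts of 4169, 4397, 3994 and 4210.2 in the control samples and 7546, 6672, 6532 and 7373 in the Cre samples. It rose by a log2 fold change of 0.74 (SE 0.04, adjusted p = 3.4e-12, limma), with all Cre samples far above all control samples. *Socs3*, a feedback inhibitor of IL-6 receptor signalling, had normalized counts of 1011, 1082, 970.6 and 976.9 in the control samples and 1486, 1427, 1323 and 1378 in the Cre samples. *Socs3* rose by 0.47 (SE 0.04, adjusted p = 2.14e-08, limma), again without overlap. *Cish*, a STAT5 target, rose by 0.39 (adjusted p = 0.00347, limma) and the phosphatase gene *Ptpn1* by 0.19 (adjusted p = 2.62e-06, limma).

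Shedding and mRNA decay set how much cytokine a transcript yields. Here 1 of the 8 genes tested was called higher and 4 lower, beside 20.8% and 20.3% of all tested genes. *Zfp36*, which encodes tristetraprolin, a protein that marks *Tnf* and other cytokine mRNAs for decay, had normalized counts of 4963, 5099, 5164 and 5098 in the control samples and 4370.1, 4648, 4699.8 and 4227 in the Cre samples. *Zfp36* fell by 0.18 on the log2 scale (adjusted p = 6.52e-05, limma) and its relative *Zfp36l1* fell by 0.16 (adjusted p = 0.000801, limma), both without overlap. *Zc3h12a*, which encodes Regnase-1, a nuclease that cleaves *Il6* and *Il12b* mRNA, had a log2 fold change of -0.09 (adjusted p = 0.0332, limma). That call was lost in 8 of 17 alternatives, among them scaling to total reads (adjusted p = 0.0816) and eBayes without trend (0.0974). The others were the fits without control replicate 1 (adjusted p = 0.0671), control replicate 2 (0.103), control replicate 4 (0.0592), Cre replicate 1 (0.0947), Cre replicate 3 (0.0636) and Cre replicate 4 (0.0903). *Arid5a*, whose product protects *Il6* mRNA from decay, had normalized counts of 57.64, 69.95, 97.17 and 83.96 in the control samples and 112.5, 117.4, 79.3 and 123.5 in the Cre samples. The groups overlapped through Cre replicate 3, and the log2 fold change was 0.49 (SE 0.16, adjusted p = 0.0185, limma). The call of *Arid5a* was lost with eBayes without trend (adjusted p = 0.0911) and without control replicate 1 (0.0659), control replicate 2 (0.0503), Cre replicate 2 (0.0562) or Cre replicate 4 (0.0715). *Adam17*, the protease that releases TNF from the membrane, had a log2 fold change of 0.03 (adjusted p = 0.354, limma), which was called with quantile normalization at 0.071 (adjusted p = 0.00848).

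Of the 8 TNF receptor adaptors, 5 were called higher and 2 lower, beside 20.8% and 20.3% of all tested genes. *Traf1*, an NF-κB target that binds TNFR2 complexes, had normalized counts of 1556, 1612, 1509 and 1587 in the control samples and 2283, 2172, 2042 and 2168 in the Cre samples. *Traf1* rose by a log2 fold change of 0.47 (SE 0.04, adjusted p = 1.42e-09, limma), and the genotypes did not overlap. *Cflar*, which encodes the caspase-8 inhibitor cFLIP, rose by 0.24 (adjusted p = 9.52e-07, limma) and *Birc3*, a ubiquitin ligase of TNF receptor complexes, by 0.23 (adjusted p = 1.84e-06, limma). *Fadd*, the adaptor that recruits caspase-8 to death receptors, fell by 0.26 on the log2 scale (adjusted p = 0.00136, limma).

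**Figure D4:**
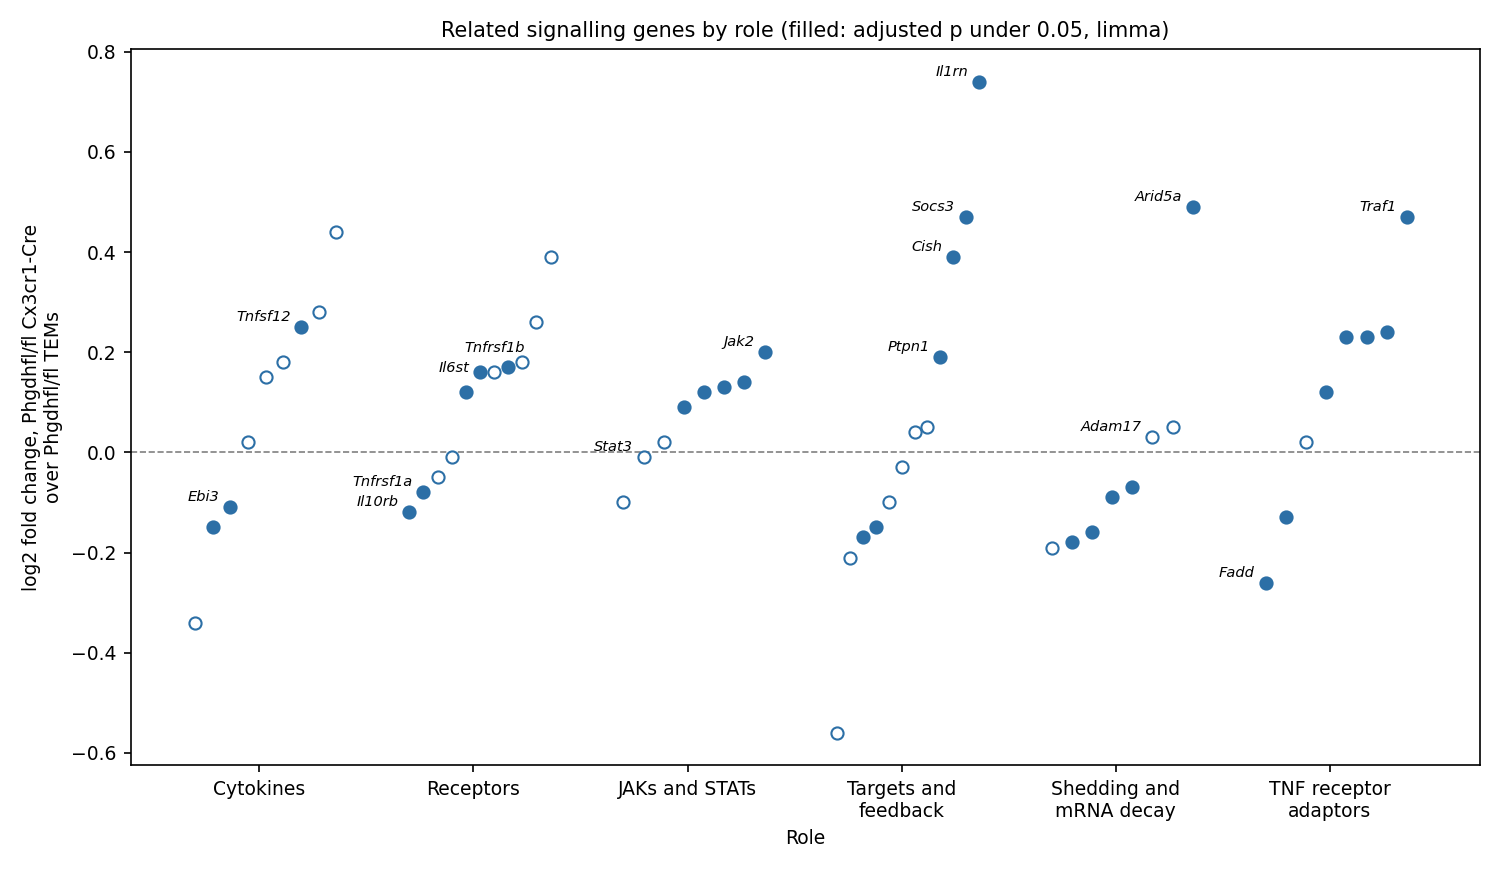
Log2 fold change of the 56 tested pathway genes (vertical axis, *Phgdh*fl/fl *Cx3cr1*-Cre over *Phgdh*fl/fl TEMs) by role, sorted within each role, with filled points for an adjusted p under 0.05 in limma. *Il1rn* (0.74), *Arid5a* (0.49), *Socs3* (0.47) and *Traf1* (0.47) are the highest called genes and *Fadd* (-0.26) the lowest.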

How the data were processed

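RNA-seq was analysed for 4 *Phgdh*fl/fl and 4 *Phgdh*fl/fl *Cx3cr1*-Cre TEM samples, grouped by the labels. The authors mapped single-end reads to mm10 with TopHat2, counted them per gene with HTSeq 0.6 and used DESeq2, per the submitters' processing notes and the methods. The authors deposited a normalized signal for each gene and sample, in which reads are divided by the sample's size factor but not by gene length, so it is not FPKM. The deposited table also holds the authors' comparison, with log2 fold changes, a test score and p-values, and none of the values of that comparison was used.

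Dividing by the value of 1 read gave whole reads for 100% of 144353 values above 0 (within 0.01 reads). Genes averaging at least 10 normalized counts were kept (13629 of 18635), and log2(normalized count + 1) was compared with limma 3.58.1 in R 4.3.3 (two-sided, eBayes with trend, p-values adjusted over all genes tested after Benjamini and Hochberg). Fold changes on this scale understate those of low genes. Single values were tested by exact permutation (scipy 1.17.1, Python 3.11.15). FPKM came from the recovered reads and GENCODE M21 exon lengths. Promoter windows are RefSeq's, on GRCm38.p6. The code was tested on simulated data. edgeR 4.0.16 and DESeq2 1.42.0 on recovered reads were alternatives, beside another pseudocount (0.1), other filters, scalings, a replicate block and leaving out each sample.

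A gene of the pathway list is not reported here. The genes and lists were chosen with earlier results of these data known. The genes named are the 10 cytokine genes, *Phgdh*, a preset set of their partners, and up to 4 called genes of the largest absolute log2 fold change per role. *Cx3cr1*, *Apobr*, *S100a8* and the 3 macrophage markers were added after their values were seen. Replicate samples differed by more than sampling noise (chi-square per gene 1.75 to 5.72 within a genotype). Same-numbered samples deviated together weakly, with correlations of 0.063, 0.098, 0.126 and 0.078. The best match was the same-numbered sample for control replicates 2, 3 and 4 and Cre replicates 2 and 3, but not for the others. Whether the replicate numbers pair the samples was not tested.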

Additional observations from a re-analysis of the deposited data

Results flagged for a closer look

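In 3 of the 90 groups of 4 samples examined (genes described with counts or a fold change, in each genotype), 1 sample stood apart by Dixon's criterion, and chance flags about 1 in 20 such groups. *Tnf* was 3215 normalized counts in Cre replicate 4 against 3438 to 3464 in the other Cre samples. *S100a8* was 575.7 in the same sample against 629.0 to 631.3 in the others. *Il10rb* was 6886 in Cre replicate 3 against 6508 to 6557 in the others.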

How the results depend on the processing

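Depth limits *Il6* most, at 13 to 44 reads per sample. Of the cytokine genes, 5 were called in the analysis reported and 4 to 5 when each sample was left out, with *Osm* the call lost; the pathway list gave 31 calls, and 26 to 29 with a sample left out. Requiring an absolute log2 fold change over 1.5 as well left 0 cytokine genes and 0 pathway genes. At least 98.4% of all tested genes lay below that cutoff. *Il6*, *Il12b*, *Il15* and *Il10ra* kept direction and call in every alternative that tested them, *Il6* (adjusted p 0.00298 to 0.0315) being untested at a mean of at least 50. With the replicate block 5 cytokine genes and 32 pathway genes were called, and the exact paired tests of the ratios could not go below p = 0.125. Among log2 fold changes that were not called, the sign changed with a sample left out for *Il10* (-0.081 to 0.071), *Il27* (-0.105 to 0.042), *Il6ra* (-0.029 to 0.025) and *Stat3* (-0.027 to 0.003). Scaling to total reads gave 0.009 for *Il6ra* and 0.003 for *Stat3*; the cause was not tested. Over the samples left out, the log2 ratio difference was 0.366 to 0.408 for *Il10ra* to *Il10rb*, -0.146 to -0.012 for *Ebi3* to *Il27* and -0.146 to -0.023 for *Il15ra* to *Il15*. The median of all genes moved only between -0.012 and 0.013.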
